A study of Olea europaea with 24 samples.

Results

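In branches of olive trees (Olea europaea), 150 gene models stood at their highest group level on 29 July in dried and in watered trees alike. They are 150 of 31784 rows with gene model IDs in the authors' table of scaled counts, in which each count is divided by 1 constant per library. Levels are given as log2(scaled count + 1). For each group of arm and day the median over its 3 trees was taken, and a row qualified by its 2 medians of 29 July. These had to lie less than 1 apart, the lower of them had to be at least 5, and it had to exceed the highest of the other 6 group medians by 1 or more, a difference called the gap here. This rule was met by 221 rows, and the 150 with the largest gaps were taken. The values of 29 July, set against the highest of the other 6 medians, thus chose the members. Each comparison of the members with that day is therefore a description with no test. The tests reported for the members are those among the 6 groups of the 3 earlier days. The rule put a ceiling on the medians of these 6 groups, at least 1 below July, and the tests do not allow for it.

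The groups are dried trees 4, 8 and 12 and watered trees 3, 9 and 11, each sampled on 7 May, 23 May, 6 June and 29 July, so that 24 libraries fall into 8 groups of 3 trees. The labels give an irrigation of 1.2 litres a day. They state that dried trees received 1 litre a week over 2 weeks and no water over the next 2 weeks, without tying these weeks to the sampling days or saying whether watering resumed. The authors' deposited table of comparisons uses the words control, drought and after, and the series title speaks of heat, drought and recovery. Poly-A RNA was sequenced from ground branches, in which tissues are not separated, so fewer cells of a type and less RNA per cell cannot be told apart.

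A tree branch stores carbon as starch in living cells of its wood and bark. ADP-glucose pyrophosphorylase and starch synthase build that starch, beta-amylase releases maltose from it, and sucrose arriving through the phloem is opened by sucrose synthase or by invertase. Over a growing season branch tissue also passes between elongation, radial growth and storage. The 150 members carry only gene model IDs. The gene table available for the assembly O_europaea_v1, with 47911 genes, matched 0 of these IDs, so no member is given a name, a position, a sequence or a role. The tissue label could not be checked against marker genes for the same reason. The only rows with a stated role are those that the authors named as carbohydrate genes, and these are set beside the members further on.

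The make-up of the libraries touches every result. The total count ran from 6675182 to 14122752 per library, and 19 abundant rows without names, each with a mean share of at least 0.5%, held 12.4% to 90.6% of it. In dried tree 4 on 6 June 1 count was worth 5.46 scaled units and in dried tree 8 on 23 May 5.41, so low levels are coarse in those libraries. The label "highest in July" holds for group medians and not for every library: the libraries of dried tree 4 and watered tree 3 on 7 May, and of watered tree 3 on 6 June, stood at the July level. Over the members, the median level was 6.45 to 7.31 in the 6 libraries of 29 July, 6.90, 6.93 and 7.05 in these 3 libraries, and 0 to 5.03 in the other 15 libraries. All 6 July libraries lay above all 18 others for 7 members, and above the other 15 for 90 members. Whether these 3 libraries carry the right labels was not tested.

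**Figure D1:**
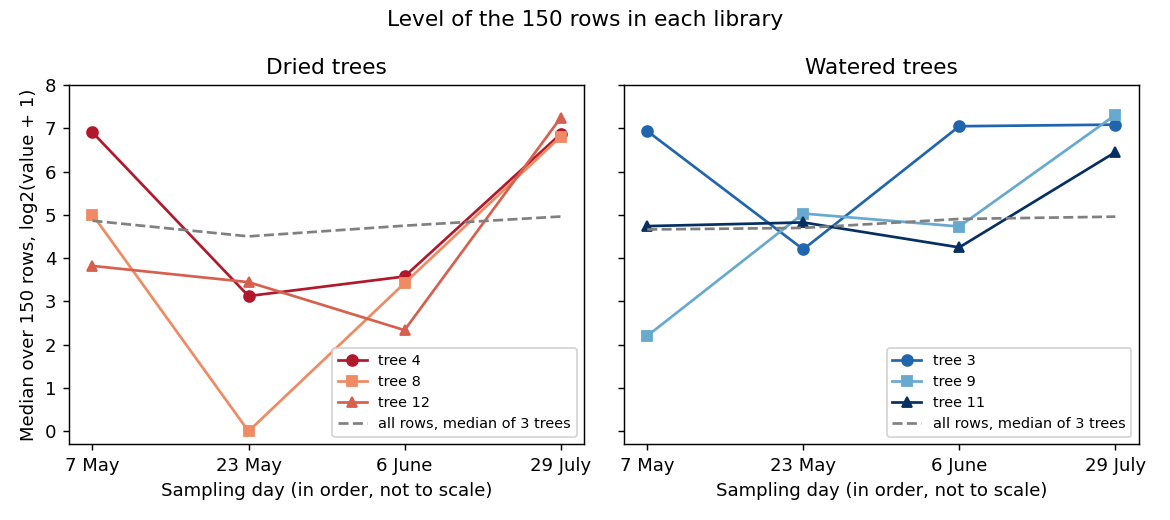
Median over the 150 members of log2(scaled count + 1) in each library, by sampling day, for the dried trees (left) and the watered trees (right), with the median of all rows dashed. All 6 libraries of 29 July lie between 6.45 and 7.31, and tree 4 on 7 May and tree 3 on 7 May and 6 June lie at that level.

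The gap ran from 3.10 to 1.15 with a median of 1.47, and the lower July median ran from 5.06 to 11.73 with a median of 6.95. On 29 July the median distance between the arm medians was 0.13, and 137 of the 150 members were within 0.5. The rule admitted only rows with these medians less than 1 apart, so this closeness is a description. It was not particular to the members. In the fit described further on, the interquartile range of log2 fold changes, dried over watered, was -0.22 to 0.18 over all tested rows on 29 July. Over the members it was -0.13 to 0.20. The dried median was the higher for 70 members and the watered median for 80. The median over members of the group medians in dried trees was 5.03 on 7 May, 2.76 on 23 May, 3.18 on 6 June and 7.02 on 29 July. In watered trees it was 4.76, 4.79, 4.84 and 7.05 on the same days. Over all rows with IDs the same quantity moved little, between 4.47 and 4.96 in dried trees and between 4.69 and 4.96 in watered trees.

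In dried trees many members were close to undetected in the middle of the series. The group median was 0 counts for 30 members in dried trees on 23 May, against 6 members in watered trees, and for 43 members in dried trees on 6 June, against 1 in watered trees. On 7 May it was 0 for 1 member in dried and 2 members in watered trees. No member had 0 counts in any July library. The share of all rows with a group median of 0 is not given, so these counts are not a result about the members as such. Detection also differed between libraries. The rows with a count numbered 22903 in dried tree 8 on 23 May and 26990 in dried tree 4 on 6 June. They numbered 24022 in watered tree 9 on 7 May, and 33421 to 36029 in the July libraries. The lowest of the 8 group medians was that of dried trees on 6 June for 81 members and of dried trees on 23 May for 54. The group next to July was more evenly spread: dried trees on 7 May for 65 members, watered trees on 6 June for 31, on 23 May for 25 and on 7 May for 23, and dried trees on 6 June for 5 and on 23 May for 1.

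As a share of the count outside the 19 abundant rows, the members together held 1.12% to 1.51% in dried trees and 0.927% to 1.58% in watered trees on 29 July. The 3 libraries named above held 1.07% to 1.36%, and the other 15 held 0.0136% to 0.347%. The share of the abundant rows themselves was 12.4% to 73.6% on 29 July, 15.1% to 29.02% in the 3 libraries and 18.5% to 90.6% in the other 15. Dried tree 4 on 29 July had 73.6% of its count in the abundant rows and the members at 1.12% of the remainder. The rule chose the members for a high July level, so their larger July share is a description. Whether library composition bears on it was not tested.

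Within single trees the July level was the highest of the 4 days for 149 members in tree 12, 138 in tree 8 and 85 in tree 4 of the dried arm, and for 145 in tree 9, 135 in tree 11 and 71 in tree 3 of the watered arm. In tree 4 the other 65 members were highest on 7 May. In tree 3, 51 were highest on 6 June and 28 on 7 May.

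The members followed one another closely across libraries. Pearson r of a member with the mean of the standardised profiles, over 24 libraries that share depth and composition, ran from 0.45 to 0.96 with a median of 0.86, and 110 members exceeded 0.8. Between pairs of members the median r was 0.73, and 1 of 11175 pairs was negative. Oeu009320.2 had the highest r with the mean profile and Oeu050540.2 the lowest. These values follow in part from the rule, which chose rows with 1 shared July contrast.

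**Figure D2:**
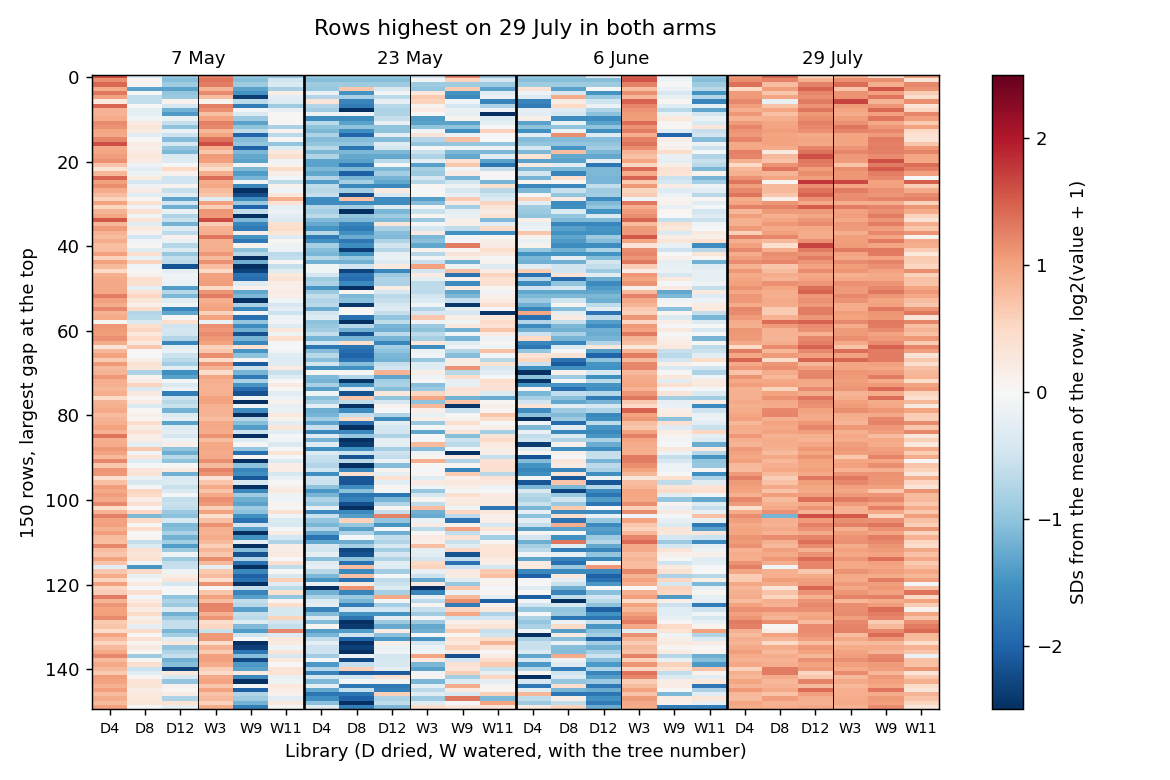
Standardised log2(scaled count + 1) of the 150 members (rows, largest gap at the top) in 24 libraries (columns, D dried, W watered, with the tree number), as SDs from the mean of the row. The 6 columns of 29 July are high throughout, and D4 and W3 on 7 May and W3 on 6 June share their pattern.

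The largest gaps were those of Oeu030720.1 (3.10) and Oeu056803.1 (3.04). In scaled counts Oeu030720.1 had 171, 2.01 and 0 in dried trees 4, 8 and 12 on 7 May, 0 in all of them on 23 May, 0, 0 and 3.03 on 6 June, and 55.7, 109 and 20.8 on 29 July. In watered trees 3, 9 and 11 it had 78.3, 0 and 0 on 7 May, 1.36, 70.1 and 0 on 23 May, 136, 3.40 and 0 on 6 June, and 36.6, 13.7 and 50.6 on 29 July. Single trees were therefore as high before July as in July, among them watered tree 9 on 23 May, and the medians of the groups passed over them. Oeu056803.1 had 67.2, 7.02 and 0 in dried trees on 7 May, 0 in all of them on 23 May and on 6 June, and 66.6, 75.8 and 39.4 on 29 July. In watered trees it had 95.4, 0 and 1.87, then 5.43, 20.02 and 2.38, then 144, 5.11 and 0, and on 29 July 64.8, 67.3 and 13.3. Its July libraries were all detected, and watered tree 11 was the lowest of them.

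The highest July medians in scaled counts, which are not corrected for transcript length, belonged to Oeu028824.2 (11.73) and Oeu038575.1 (11.35). Oeu028824.2 had 2439.7, 1178 and 998 in dried trees on 7 May, 446, 217 and 479 on 23 May, 491, 1116 and 336 on 6 June, and 3616, 2451 and 3393 on 29 July. In watered trees it had 2116, 314 and 1101, then 1011, 604 and 2227, then 2488, 699.6 and 718, and on 29 July 4001, 3661 and 2923. It was detected in every library, and its lowest dried July value, in tree 8, lay just above dried tree 4 on 7 May. Oeu038575.1 had 3634, 339 and 123 in dried trees on 7 May, 224, 200.3 and 465 on 23 May, 109, 939.9 and 97.1 on 6 June, and 2804, 2045 and 2717 on 29 July. In watered trees it had 3498, 10.8 and 345, then 2276, 180.2 and 1014, then 4146, 306 and 128, and on 29 July 2610.5, 2669.8 and 613. Watered tree 11 stood apart from the other two on that last day, below 2 of the watered libraries of 23 May.

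At the edge of the rule, Oeu010138.3 and Oeu055253.1 were the last rows inside, each with a gap of 1.15, and Oeu022158.1 (1.15) and Oeu053052.1 (1.14) were the first outside. Oeu010138.3 had 304, 256 and 253 scaled counts in dried trees and 282, 317 and 154 in watered trees on 29 July. Oeu055253.1 had 45.6, 44.0 and 47.3 scaled counts in dried trees and 40.9, 66.4 and 17.3 in watered trees on 29 July. Oeu022158.1 had 49.3, 73.3 and 66.97 in dried trees and 34.3, 45.7 and 34.6 in watered trees on that day, and 0 in all 6 trees on 23 May. Oeu053052.1 had 57.5, 25.3 and 60.3 in dried trees and 54.5, 53.7 and 53.9 in watered trees on the same day. Oeu010138.3 was thus the highest of the 4 in July, and the July ranges of the other 3 overlapped.

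The same 3 thresholds with the high pair of groups at another day were met by 24 rows for 7 May, 15 for 23 May, 54 for 6 June and 221 for 29 July. The mirrored rule asked for both groups of a day to lie less than 1 apart and below each of the other 6 medians by 1 or more, with those 6 at 5 or higher, and it was met by 6, 32, 3 and 41 rows in the same order. Both medians of 29 July were the highest of all 8 for 4912 rows, against 1238 for 7 May, 1234 for 23 May and 2230 for 6 June.

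Among the 6 earlier groups, the clearest feature of the members was a low level in dried trees on 23 May and 6 June, which few single members passed in a test. Counts were tested with edgeR (quasi-likelihood test, Benjamini-Hochberg adjustment over 29107 rows, called at an adjusted p under 0.05), and all 150 members passed its filter on low counts. Members were chosen for a high July level, which counts toward that filter, so passing it says nothing of the earlier days. Members also varied more between trees than other rows, with a median biological coefficient of variation of 0.888 against 0.587 over all tested rows. Counts at an unadjusted p come without the share of all rows at that cut. They are therefore not a result about the members as such.

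On 7 May, the first day, the arms did not stand apart. The median log2 fold change of the members, dried over watered, was 0.07, against 0.08 over all rows, and 0 members were called by edgeR (0 at an unadjusted p under 0.05), where 0% of all rows were. DESeq2 called 0 of the 44 members to which it gave an adjusted p, where 0.972% of rows were called. The sign of this median rested on single trees: it was -1.08 without dried tree 4 and 1.496 without watered tree 3, each of which had its 7 May library at the July level. Without the 3 libraries at that level it was 0.39.

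On 23 May 137 of 150 members had a negative log2 fold change, dried over watered, with a median of -1.62 against -0.36 over all rows. None was called by edgeR, where the share of all rows called lower was 0%. At an unadjusted p under 0.05 there were 33 members, with no share of all rows given at that cut. DESeq2 called 5 members lower and 1 higher, with 1.21% of all rows called lower. Summed over the group, 11 members had 0 counts in a group of that day, and with these at their bounds and 2 members under the floor of 3 counts left out the median was -1.56.

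On 6 June 144 of 150 members had a negative log2 fold change, dried over watered, with a median of -2.45 against -0.25 over all rows. EdgeR called 1 member lower, where 0.0825% of all rows were called lower. At an unadjusted p under 0.05 there were 81 members, and the share of all rows at that cut is not given. DESeq2 called 56 members lower, where 9.08% of all rows were. The number called depended on single trees: edgeR called 0 without dried tree 4, 8 or 12 or watered tree 11. It called 41 without watered tree 9 and 45 without the 7 May library of tree 9 alone. That library is not part of the contrast and acts on it only through the shared spread, filter and scaling. The share of all rows called in these fits is not given, so their counts are not a result about the members. The size rested on watered tree 3, whose library stood at the July level: without that tree the median was -1.07, and without all 3 libraries at that level it was -1.19, with 116 of 150 members negative and none called.

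Oeu036692.1 was the member called on 6 June. It had 0 counts in each of dried trees 4, 8 and 12, against 1599, 51 and 18 counts in watered trees 3, 9 and 11. After scaling for library size this is at least 228-fold lower, with a floor of 3 counts over the group (edgeR adjusted p = 0.0485). Of the watered count, 1599 of 1668 came from tree 3. On 7 May it had 288, 111 and 42 counts in the dried trees and 376, 0 and 75 in the watered trees, and on 23 May 7, 0 and 3 counts in the dried trees and 51, 18 and 134 in the watered trees. On 29 July it had 364, 732 and 442 counts in the dried trees and 956, 815 and 479 in the watered trees. The groups did not overlap on 6 June, and watered tree 9 on 7 May was the only watered library at 0.

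**Figure D3:**
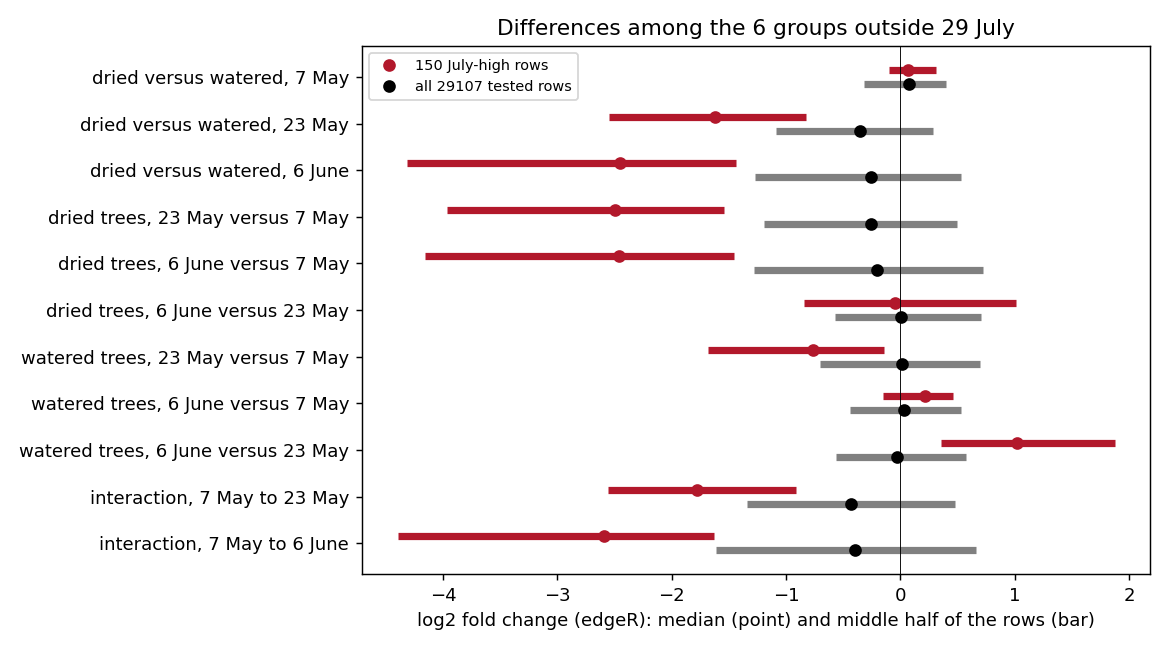
EdgeR log2 fold changes for the 11 contrasts among the 6 groups before 29 July. Points are medians and bars the interquartile range, over the 150 members (red) and over all 29107 tested rows (black and grey). The members lie below all rows for dried against watered on 23 May (-1.62) and 6 June (-2.45), for dried trees against 7 May and for the interactions. They also lie below all rows for watered trees on 23 May against 7 May (-0.76 against 0.01).

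Within the dried arm most members had negative fold changes on 23 May and on 6 June against 7 May, and few passed the test. On 23 May 147 of 150 log2 fold changes against 7 May were negative, with a median of -2.497 against -0.26 over all rows. EdgeR called 0 members, where 0.0928% of all rows were called lower. The 85 members at an unadjusted p under 0.05 have no share of all rows beside them. DESeq2 called 48 members lower, where 7.2% of all rows were. By tree, the median change on the log2(scaled count + 1) scale was -4.02 in tree 4, with 148 members lower, -3.70 in tree 8, with 133 lower, and -0.16 in tree 12, with 78 lower. Tree 12 was thus little changed and had already stood at 3.82 on 7 May. Without the 3 libraries at the July level, which takes tree 4 out of 7 May, the fitted median was -1.39 with 125 members negative.

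On 6 June 146 of 150 log2 fold changes against 7 May were negative in dried trees, with a median of -2.46 against -0.20 over all rows. EdgeR called 3 members lower, where 0.876% of all rows were called lower. With the tree as a block it called 0, with a median of -2.35. DESeq2 called 51 members lower, where 10.2% of all rows were. EdgeR called 0 without dried tree 4, 8 or 12, without watered tree 11 or without the 3 libraries at the July level. It called 30 without watered tree 3, 39 without watered tree 9 and 42 without the 7 May library of tree 9. For these fits too the share of all rows called is not given. Without those 3 libraries the median was -1.46 with 121 of 150 members negative. By tree, the median change was -3.88 in tree 4, -1.86 in tree 8 and -1.24 in tree 12. From 23 May to 6 June the members had no shared direction in dried trees, with 68 positive and 77 negative log2 fold changes and a median of -0.05, and edgeR called 0 members, where 0.00344% of all rows were called. At an unadjusted p under 0.05 there were 3 members, and DESeq2 called 1 member lower, where 0.368% of all rows were. With 19 members that had 0 counts in a group at their bounds and 14 under the floor left out, that median was -0.16.

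The 3 members called for 6 June against 7 May were Oeu036692.1, Oeu052936.1 and Oeu037148.1. Oeu036692.1 had 0 counts on 6 June against 441 on 7 May, at least 59.1-fold lower after scaling for library size (edgeR adjusted p = 0.0470). Oeu052936.1 had 0 counts on 6 June in each dried tree, against 480, 131 and 21 counts in trees 4, 8 and 12 on 7 May. By the same scaling it was at least 84.7-fold lower (adjusted p = 0.0483 by edgeR). It had 1078, 51 and 30 counts in watered trees 3, 9 and 11 on 6 June, and 437, 1021 and 853 in dried and 886, 916 and 546 in watered trees on 29 July. Oeu037148.1 had 2, 4 and 7 counts in dried trees on 6 June, against 360, 95 and 30 on 7 May. In pooled counts scaled for library size it was 14.995-fold lower (95% exact binomial interval 8.69 to 28.4, for counting error only). The edgeR log2 fold change was -3.73 ± 0.89 (SE, adjusted p = 0.0485), with 3 trees a day and the spread shared over all 24 libraries. On 23 May it had 16, 3 and 16 counts in the dried trees. In all 3 rows the dried libraries of 6 June lay below each dried library of 7 May, and tree 4 was the highest on 7 May.

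In watered trees no member was called in any contrast among the 3 earlier days by edgeR. The share of all rows called was 0.0206% for 23 May against 7 May, 0% for 6 June against 7 May and 0% for 6 June against 23 May, with 9, 0 and 12 members at an unadjusted p under 0.05. DESeq2 called 1 member for 23 May against 7 May, where 6.57% of all rows were called, 0 for 6 June against 7 May, where 1.86% were, and 1 for 6 June against 23 May, where 0.387% were. The median log2 fold change of the members was -0.76 on 23 May against 7 May, 0.22 on 6 June against 7 May and 1.02 on 6 June against 23 May, and over all rows 0.01, 0.03 and -0.03. These medians followed tree 3: without it they were 0.57, 0.18 and -0.37, and without the 3 libraries at the July level 0.65, 0.26 and -0.33. From 7 May to 23 May the median change was -2.35 in tree 3, 2.92 in tree 9 and 0.34 in tree 11, so the trees of this arm did not share a direction. The 7 May library of tree 9 had 0 counts for 71 of the 150 members.

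The change since 7 May was more negative in dried than in watered trees for most members. For 23 May the median log2 interaction was -1.78 against -0.43 over all rows, 138 of 150 were negative, and edgeR called 0 members (0% of all rows, and 12 members at an unadjusted p under 0.05). DESeq2 called 2 lower of the 44 members to which it gave an adjusted p, where 0.929% of rows were called lower. With 11 members that had 0 counts in a group at their bounds the median was -1.62, and without the 3 libraries at the July level the fitted median was -2.17. For 6 June the median was -2.59 against -0.40, 144 were negative, and edgeR called 1 member lower, Oeu036692.1 (adjusted p = 0.0466), where 0.189% of all rows were called lower. With the tree as a block it called 0. DESeq2 called 21 members lower, where 4.76% of all rows were. Leaving out any 1 of trees 4, 8, 9, 11 and 12, the 7 May library of tree 9 or the 3 libraries at the July level gave 0 edgeR calls. Leaving out tree 3 gave 10, and the share of all rows called in that fit is not given. Without those 3 libraries the median was -1.74 with 115 of 150 negative.

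The comparisons with 29 July describe what the rule chose. In dried trees the median log2 fold change of the members on 29 July was 1.25 over 7 May, 3.69 over 23 May and 3.77 over 6 June. In watered trees it was 1.25 over 7 May, 1.96 over 23 May and 1.13 over 6 June. Without the 3 libraries at the July level the median over 7 May was 2.37 in dried and 2.65 in watered trees, and the median over 6 June in watered trees was 2.64. Between the arms on 29 July the median was 0.04. No calls are given for these comparisons, since the rule used their values.

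The authors' deposited table holds 9 comparisons, and for the 7 whose names hold the number 3, which stands for 29 July if the numbers follow the days, the median of its log2 fold changes over the members is a description alone. In the authors' deposited table that median was 4.15 for after 3 and drought 1, 3.96 for after 3 and drought 2, 1.59 for after 3 and control 0 (over 91 members with an adjusted p) and -0.38 for after 3 and control 3. The contrast here closest to after 3 and control 3 was dried over watered on 7 May (r = -0.69). What that comparison holds is therefore uncertain. In the authors' deposited table the median was -2.09 for control 0 and control 3 (over 119 members), -2.09 for control 1 and control 3, and -1.83 for control 2 and control 3. The other 2 comparisons hold no July library by their names. For control 1 and drought 1 the authors' deposited table gives an adjusted p to 33 members, of which 2 were positive and significant, where 0.676% of its rows were. For control 2 and drought 2 the authors' deposited table has 20 of 150 members positive and significant, where 4.79% of rows were. The values of these 2 comparisons lay closest to the interactions of arm with the change from 7 May, with the opposite sign. For control 1 and drought 1 this was the change to 23 May (r = -0.92), and for control 2 and drought 2 that to 6 June (r = -0.96). If these comparisons are such interactions, positive there stands for a more negative change since 7 May in dried trees. Their names do not say so, and r with the difference of the arms on the same day is not given. What positive stands for is therefore uncertain.

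The carbohydrate rows that the authors named were set beside the members, since they alone carry a role. The authors chose these rows and may have used these libraries, so their direction is not independent evidence. Of 86 such rows in the scaled table, 36 (41.9%) had both July medians as the highest of the 8, against 15.5% of rows with IDs, and 4 (4.65%) had both as the lowest, against 6.51%. The 36 include 5 of 7 agp rows (ADP-glucose pyrophosphorylase by their name), 6 of 11 sucrose synthase rows, 5 of 13 beta-amylase rows, 4 of 10 starch synthase rows, and 2 of 3 rows each for starch phosphorylase, starch branching enzyme and isoamylase. The rest were 2 of 3 rows named mex, 2 of 5 named aamylase, 2 of 8 named hexokinase, 1 of 2 named aglucan, 1 of 5 named gpt, 1 of 3 named pgm and 1 of 2 named ugp. None of the 5 invertase rows was among them, nor any row named dpe or gluct. The 4 lowest in July were bamylase2, bamylase3, bamylase10 and invertase2.

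The thresholds of the rule were met by 5 of the 86 rows (5.81%), against 0.695% of rows with IDs. They were agp2, gpt2 (a glucose-phosphate transporter of plastids by its name), pgm4 (a phosphoglucomutase, which links glucose-1-phosphate and glucose-6-phosphate), starchp3 (a starch phosphorylase) and sucsynthase6. In scaled counts agp2 had 3733, 1571 and 5485 in dried trees 4, 8 and 12 and 5234, 3706 and 4602 in watered trees 3, 9 and 11 on 29 July. On 23 May it had 3.86, 10.8 and 29.7 in the dried and 44.8, 93.4 and 141 in the watered trees, so all July libraries lay far above that day in both arms. On 7 May it had 2381, 576 and 567 in the dried and 2871, 75.8 and 1602 in the watered trees, and on 6 June 104, 21.03 and 132 in the dried and 2622, 257 and 210 in the watered trees. On those days dried tree 4 on 7 May, watered tree 3 on both and watered tree 11 on 7 May exceeded the July library of dried tree 8. Gpt2 had 850.0, 226 and 1599 in dried and 1232, 1035 and 1505 in watered trees on 29 July, and on 6 June 16.4, 4.85 and 1.01 in dried and 364, 57.9 and 46.0 in watered trees. Starchp3 had 1982, 1547 and 2260.2 in dried and 2391, 1734 and 1548 in watered trees on 29 July, and on 6 June 169, 181 and 196 in dried and 1649, 579 and 482 in watered trees. Watered tree 3 on 6 June again reached the July range for starchp3, and for gpt2 it exceeded the July library of dried tree 8. On 7 May gpt2 also exceeded that July library in dried tree 4 (342) and in watered tree 9 (231). Pgm4 had 102, 110.5 and 115 in dried and 101, 123 and 59.2 in watered trees on 29 July, and sucsynthase6 had 99.5, 73.7 and 149 in dried and 122, 109 and 49.2 in watered trees. Single earlier libraries lay within these July ranges. Among them were dried tree 4 and watered tree 3 on 7 May, with 100.8 and 94.1 for pgm4 and 116.7 and 112.9 for sucsynthase6.

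The rows most like the members in profile, by Pearson r with their mean profile over 24 libraries among rows with a mean level of at least 3, were starchp3 (0.96), starchsyn4 (0.92), sucsynthase11 (0.91), sucsynthase6 (0.91) and sucsynthase7 (0.90). Starchsyn4, a starch synthase, had 6840.0, 5900.1 and 9697 scaled counts in dried and 8281, 8204 and 8190.0 in watered trees on 29 July, and 1125, 383 and 1507 in dried and 6794, 1690.2 and 1467 in watered trees on 6 June. The most opposite rows were bamylase2 (-0.96), bamylase10 (-0.88), invertase2 (-0.85), gpt1 (-0.83) and bamylase3 (-0.83). Bamylase2, a beta-amylase, had 727, 1018 and 579.7 scaled counts in dried and 545, 434 and 607 in watered trees on 29 July. On 6 June it had 10045, 10401 and 18379.9 in dried and 659, 1828 and 7657 in watered trees, and its highest library was watered tree 9 on 7 May with 45622. The 3 libraries in which the members stood at the July level had bamylase2 within its own July range, with 608 in dried tree 4 and 709 in watered tree 3 on 7 May and 659 in watered tree 3 on 6 June. Invertase2 had 4.56, 2.53 and 5.21 in dried and 2.82, 6.59 and 3.99 in watered trees on 29 July, and 1043, 4405 and 738 in dried and 7.27, 15.3 and 11.99 in watered trees on 6 June. These correlations are descriptions over libraries that share depth and composition.

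**Figure D4:**
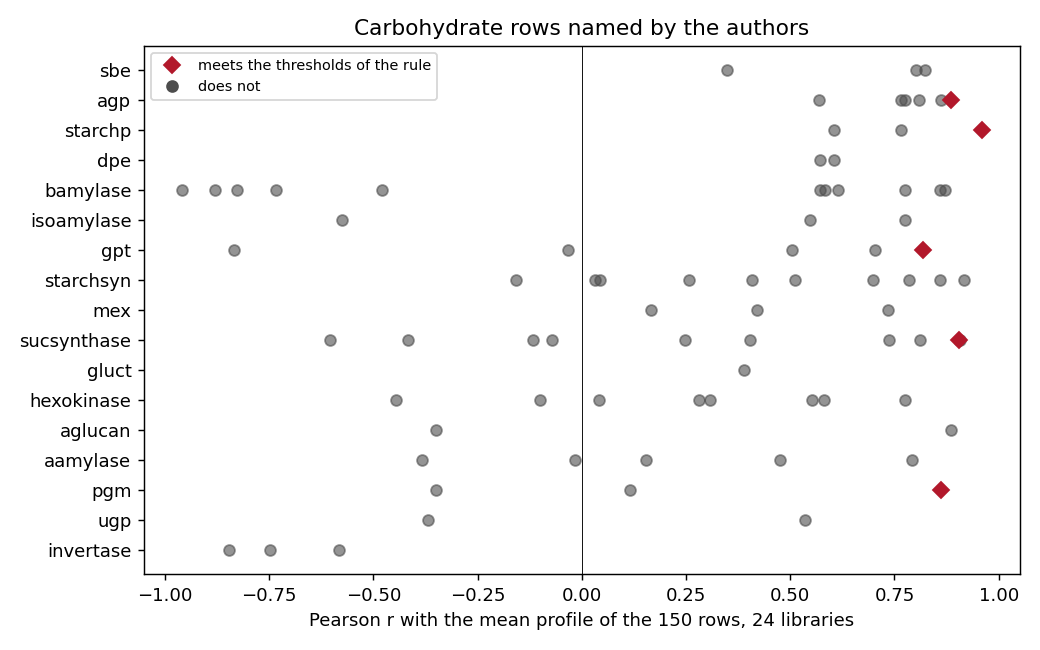
Pearson r of each carbohydrate row named by the authors (points, grouped by family) with the mean standardised profile of the 150 members over 24 libraries. Red diamonds mark the 5 rows that meet the thresholds of the rule. Starchp3 lies highest at 0.96 and bamylase2 lowest at -0.96, and beta-amylase rows lie at both ends.

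Tested by edgeR over all rows, 20 of 87 carbohydrate rows were called higher and 6 lower in dried trees on 29 July against 6 June, where 7.5% of all rows were called higher and 5.58% lower. When the tree entered as a block, the calls were 18 higher and 3 lower. The share of all rows called with the block is not given, so the counts with the block are not a result about these rows. The 6 lower rows were invertase1, invertase2, invertase8, bamylase2, bamylase3 and bamylase10. Against 23 May 6 were called higher and 1 lower, where 1.98% of all rows were called higher and 0.972% lower, and none of the 87 with the tree as a block. In watered trees none of the 87 rows was called on 29 July against 6 June by edgeR (3 at an unadjusted p under 0.05), where 0% of all rows were, and none by DESeq2, where 0.0415% were. The arms were not tested against each other for this change.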

How the data were processed

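The submitters' processing notes name cutadapt, Bowtie2, RSEM, limma and DESeq2. Their versions, and the genome build, are not given in the sources used here. RSEM expected counts (50663 rows) were deposited with a table of signal values equal to the rounded counts divided by 1 constant per library (31870 rows), and with the authors' table of comparisons, which holds a log2 fold change and an adjusted p-value per row. The rule was applied to the signal values with a pseudocount of 1, in Python 3.11.15. Expected counts were rounded to whole numbers and tested with edgeR 4.0.16 in R 4.3.3 (TMM, rows kept by filterByExpr on the groups, a mean for each of the 8 groups, 24 libraries in 1 fit). The SE of a fold change was taken as its size divided by the root of F. DESeq2 1.42.0 was run on the filtered rows, and limma 3.58.1 on the logarithm of the signal values. The fit was tested on simulated counts.

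Members and lists were chosen with earlier results of these data known. IDs were named by rule: the 2 largest gaps, the 2 highest July levels, 2 rows on each side of the edge, up to 2 called members per contrast and direction, carbohydrate rows within the thresholds, and the 5 highest and 5 lowest r. Oeu037148.1 and the called carbohydrate rows were named after their values were seen. The fit without the 3 libraries at the July level was added after member values were seen.

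Libraries of 1 tree on different days come from the same tree, so the tree number pairs days within an arm, not arms. Their deviations from group means correlated by -0.03 to 0.18 on average per tree. For single pairs of days r reached 0.41 in tree 3, 0.32 in tree 9 and 0.28 in tree 11, and the lowest was -0.19 in tree 8. EdgeR p-values of the main fit rest on 1 shared estimate of spread from all 24 libraries in 8 groups of 3 trees. Without the block, libraries of 1 tree count as independent in it. No 2 libraries held identical counts (0 pairs). Floors of 3 counts and intervals cover counting error only. The folds given with them are scaled for library size, so they are smaller than the plain ratios of the counts.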

Additional observations from a re-analysis of the deposited data

Results flagged for a closer look

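Both members below were picked out because dried and watered trees changed differently from 7 May to 6 June. For Oeu036692.1 the test of that difference itself passed in edgeR without the tree as a block, with a log2 interaction of -11.77, which depends on the prior count because the dried trees had 0 counts on 6 June. On the log2(scaled count + 1) scale each dried tree fell and each watered tree rose, and the mean change was lower by 9.06 in dried trees (dried minus watered -9.06). In watered tree 9 the rise started from 0 counts on 7 May, and in watered tree 11 the counts were 18 on 6 June against 75 on 7 May, at 36.0 against 35.0 scaled counts, so its rise is within the worth of 1 count.

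For Oeu052936.1 each dried tree fell and each watered tree rose over the same days, with a dried minus watered mean change of -8.66. Its difference did not pass in edgeR (adjusted p = 0.0547 for the interaction), and the pattern over single trees was not tested. In watered tree 11 it had 60.0 scaled counts on 6 June against 54.7 on 7 May. In watered tree 3 on 6 June Oeu036692.1, with 528 scaled counts, exceeded its 6 July libraries, and Oeu052936.1, with 356, lay within their range. In dried tree 4 on 7 May Oeu036692.1 had 164 and Oeu052936.1 had 273, below their July libraries, for Oeu036692.1 by less than the worth of 1 count.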

How the results depend on the processing

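Between arms on 23 May the number of members called went from 0 to 6 by DESeq2. On 6 June it went from 1 to 56 by DESeq2, 13 with no filter beyond 1 count, 8 and 9 with limma on log2(value + 1) and log2(value + 0.5), 45 when tree 9's library of 7 May (watered) was left out, 11 with the libraries of the day alone, 0 without the 3 libraries at the July level (added later), and 0 to 41 with a tree left out. For dried trees on 23 May against 7 May it went from 0 to 48 by DESeq2, 6 with no filter, 5 and 5 with limma, 22 without that library of tree 9, and 0 to 19 with a tree left out. For 6 June against 7 May it went from 3 to 51, 9, 6 and 7, 42, and 0 to 39 under the same settings, to 0 without the 3 libraries and to 0 with the tree as a replicate block. The interaction of 23 May gave 2 by DESeq2 and 0 to 4 with a tree left out. That of 6 June went from 1 to 21 by DESeq2, 2 with its size factors in edgeR, 3 with no filter, 0 and 0 with limma, 0 without the library of tree 9, 0 with the replicate block, 0 without the 3 libraries, and 0 to 10 with a tree left out. DESeq2 called 1 member each for dried trees on 6 June against 23 May and for watered trees on 23 May against 7 May and on 6 June against 23 May. The block changed no other member count among the earlier days. The cause of these shifts was not tested. Apart from DESeq2 above, the share of all rows called under each setting is not given. These counts are therefore not a result about the members.

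The rule was met by 221 rows, and by 423 after rescaling by the count outside the abundant rows, 137 without the library of tree 9, 751 without the 3 libraries and 59 to 419 with a tree left out. Of the 150 members, 79 stayed in the set with means in place of medians, 73 without the 3 libraries and 46 to 95 with a tree left out, and 140, 149, 121 and 140 with a pseudocount of 5, one of 0.5, the rescaling and TMM scaling. Of 165 alternative values of the members' median fold changes among the earlier days, 157 moved by less than the spread and 8 by more, all 8 without tree 3, tree 4 or the 3 libraries. Depth limits the low levels: in 15 libraries 1 to 91 members had 0 counts.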
